A study of Mus musculus with 6 samples.

Results

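The semaphorin, plexin, ephrin and Slit guidance genes are the families of secreted and membrane-bound cues, with their receptors, that were first described in the steering of growing axons. The families were picked with earlier results of these data known. Their members were then taken by symbol, as every row of the deposited count table named for a semaphorin of class 3 to 7, a plexin, a neuropilin, an ephrin, an Eph receptor, a Slit, a Robo or a netrin. The choice gave 60 genes of the 16603 in the table, 34 ligand genes and 26 receptor genes. Of these 60, 48 passed the filter on low counts and were tested among 12612 genes. Each of the 60 symbols had a gene in GENCODE M21 (GRCm38, the build also called mm10).

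RNA of whole mouse liver was sequenced in 3 libraries labelled Mdr2-knockout and 3 labelled wild-type (WT). Mdr2 is the protein of the gene Abcb4, which hepatocytes use to secrete phosphatidylcholine into bile. Mice without it develop chronic injury around the bile ducts and fibrosis. The labels give the tissue and the genotype; they give no age, sex, strain, allele or deleted part of the gene, and do not say whether each sample is another animal. P-values therefore rest on the spread among these samples only, and that spread may be technical. The letter that stands for WT in the table's header was read by elimination, so every direction rests on that reading.

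Abcb4 had 499, 513 and 434 CPM (counts scaled to a common library size, with TMM factors) in the labelled Mdr2-knockout libraries, against 330, 369 and 273 CPM in the labelled WT libraries. It was higher in each library labelled knockout. The labels do not say which part of the gene the allele removes, so the count of the whole gene cannot check the genotype, and the groups are called by their labels. The liver markers fit the labelled tissue, with summed hepatocyte markers between 79093 and 83389 CPM under the Mdr2-knockout label and between 128647 and 141780 CPM under the WT label. Library totals ran from 17356571 to 18124467 counts in the labelled Mdr2-knockout and from 17100393 to 17609978 counts in the labelled WT group, and 3 counts in a library equalled 0.149 to 0.191 CPM.

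As background, semaphorins signal through plexins: class 3 members are secreted and use neuropilins as the binding subunit, while classes 4 to 7 are held in the membrane and mostly bind plexins directly. Ephrins are membrane-anchored ligands of the Eph receptor tyrosine kinases, so that contact between cells activates receptor and ligand alike. Slits are secreted and bind Robo receptors, and netrins are laminin-related secreted cues. In liver these families are known from vessels, bile ducts, stellate cells and leukocytes as well as from hepatocytes.

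Guidance genes that differed were nearly all higher in the labelled Mdr2-knockout group. Of the 48 tested genes, 20 rose and 1 fell, at an adjusted p under 0.05 (edgeR quasi-likelihood test, Benjamini-Hochberg over all tested genes), and 27 did not pass. In bulk RNA, more or fewer cells of a type and more or less RNA per cell cannot be told apart. Among all tested genes 20.9% were called higher and 16.3% lower, so the 41.7% of guidance genes called higher lay above the background and the 2.08% called lower below it. At a change of at least 2-fold, 15 rose, against a background of 11.1%, and 0 fell, against 0.753%. The median log2 fold change was 0.39 over the 48 guidance genes and 0.01 over all tested genes. The groups did not overlap, higher, for 26 of the 48, against 27.6% of all tested genes, and, lower, for 1 of the 48, against 23.7%.

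The scaling of the libraries moved these counts. With upper-quartile factors 22 guidance genes were higher and 1 lower, against 23.3% and 11.4% of all tested genes, and with RLE factors 20 and 1, against 20.4% and 17.3%. Total counts in place of TMM factors shifted the overall median of log2 fold changes by 0.29. On that scale 35 guidance genes were higher and 0 lower, against 47% and 2.62% of all tested genes. Genes gained on that scale were Efna1, Efnb1, Epha1, Epha2, Epha4, Ephb4, Ntn4, Plxna1, Plxnc1, Plxnd1, Sema3d, Sema4b, Sema4c, Sema4g and Slit3. The shares also differed by level. Of 30 tested guidance genes with a mean under 10 CPM, 15 rose, a share of 50% beside 36% of all tested genes at that level, and 0 fell, beside 2.91%. Of 18 with a mean of 10 CPM or more, 5 rose (27.8%, beside 11.8% of all tested genes) and 1 fell (beside 24.3%). Some low genes passed the filter through the labelled Mdr2-knockout libraries alone. Ephb2, for example, had 2, 1 and 0 counts in the labelled WT libraries. Being higher helped such genes to be tested, which can add to the count of genes that rose. The genes of the background passed the same filter.

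**Figure D1:**
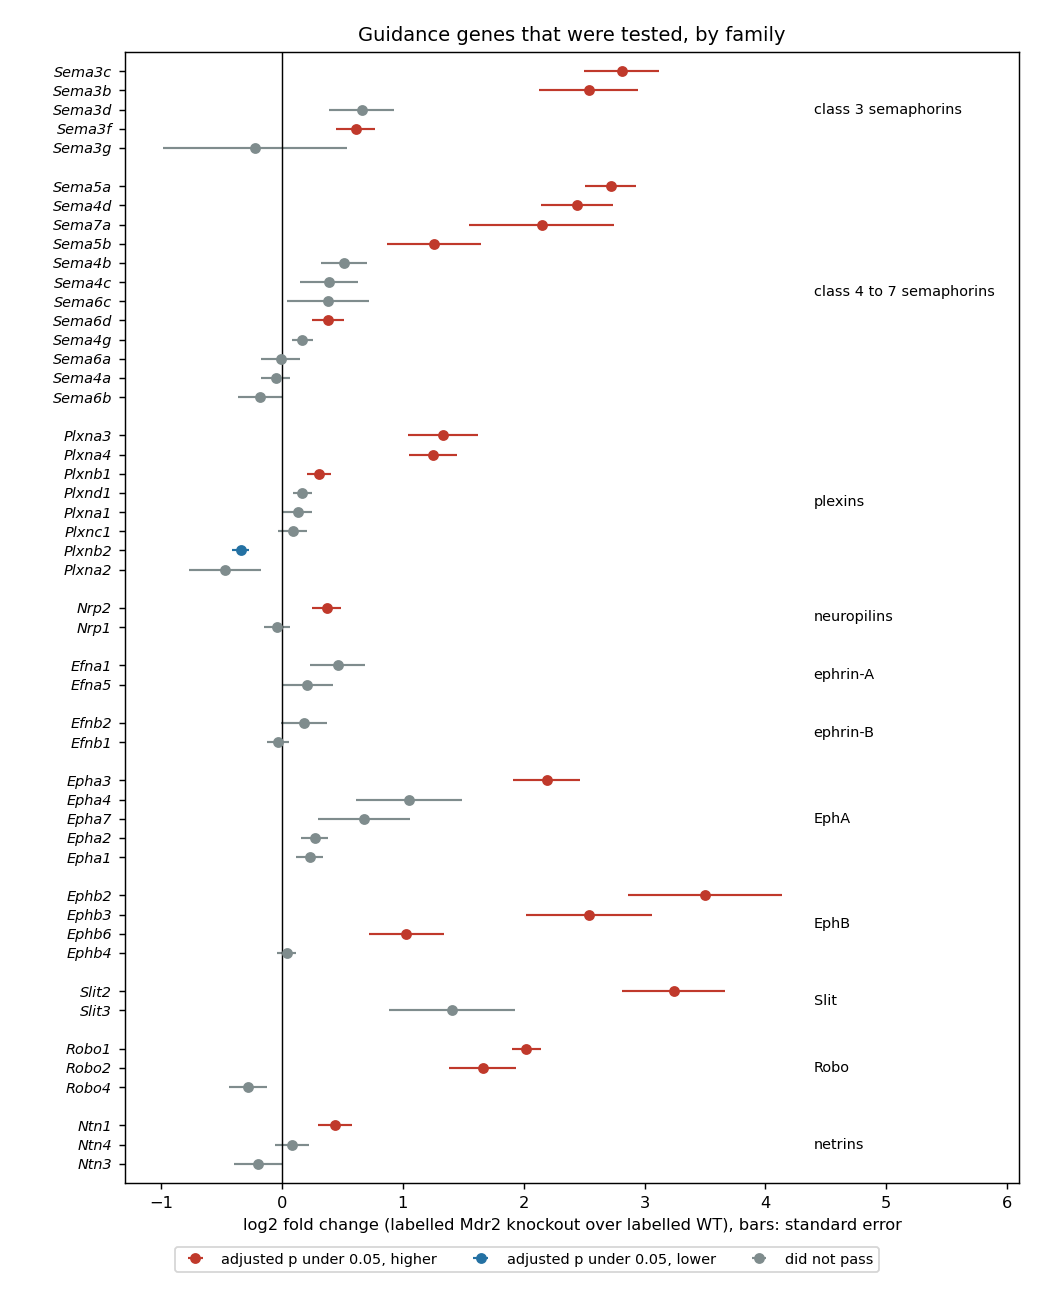
Log2 fold change of each of the 48 tested guidance genes, labelled Mdr2 knockout over labelled WT, with bars of 1 standard error, grouped by family. Points in red passed the threshold upward (20 genes), the point in blue passed it downward (Plxnb2), and grey points did not pass. The steepest increases stand in the Slit, EphB and semaphorin families.

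Promoter sequences are shown for 4 genes that rose and for the gene that fell, so that a reader can compare their start regions. Whether these genes share any regulation was not tested. Each is the stretch of 250 bases before a RefSeq start (GRCm38.p6), from 5′ to 3′ on the gene's strand. Capitals mark matches on either strand to the GC box GGGCGG, the AP-1 site TGANTCA, the TEAD site GGAATG or the HNF1 half-site GTTAAT, and neighbouring GC boxes can overlap each other.
Slit2, chr5:47982905-47983154, plus strand: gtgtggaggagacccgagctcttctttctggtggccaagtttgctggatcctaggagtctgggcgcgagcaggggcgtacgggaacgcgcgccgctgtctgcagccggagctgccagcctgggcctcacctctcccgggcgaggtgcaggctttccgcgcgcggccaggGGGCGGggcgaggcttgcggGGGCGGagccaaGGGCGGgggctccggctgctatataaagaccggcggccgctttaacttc
Robo1, chr16:72662899-72663148, plus strand: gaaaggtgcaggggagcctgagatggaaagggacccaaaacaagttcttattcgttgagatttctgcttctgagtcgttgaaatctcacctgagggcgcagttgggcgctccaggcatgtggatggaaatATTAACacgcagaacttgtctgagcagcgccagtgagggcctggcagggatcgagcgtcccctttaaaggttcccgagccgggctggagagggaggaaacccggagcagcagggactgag
Epha3, chr16:63864176-63864425, minus strand: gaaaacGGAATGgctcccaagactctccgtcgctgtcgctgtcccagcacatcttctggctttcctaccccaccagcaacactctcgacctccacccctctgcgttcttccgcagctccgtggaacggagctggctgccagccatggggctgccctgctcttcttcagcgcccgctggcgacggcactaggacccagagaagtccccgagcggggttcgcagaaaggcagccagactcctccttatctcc
Sema5a, chr15:32244563-32244812, plus strand: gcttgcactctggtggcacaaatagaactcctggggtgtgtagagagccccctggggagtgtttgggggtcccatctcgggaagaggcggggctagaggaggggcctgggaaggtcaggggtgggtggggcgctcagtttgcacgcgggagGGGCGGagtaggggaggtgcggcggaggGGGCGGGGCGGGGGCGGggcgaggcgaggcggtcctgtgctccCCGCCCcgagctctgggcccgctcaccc
Plxnb2, chr15:89180789-89181038, minus strand: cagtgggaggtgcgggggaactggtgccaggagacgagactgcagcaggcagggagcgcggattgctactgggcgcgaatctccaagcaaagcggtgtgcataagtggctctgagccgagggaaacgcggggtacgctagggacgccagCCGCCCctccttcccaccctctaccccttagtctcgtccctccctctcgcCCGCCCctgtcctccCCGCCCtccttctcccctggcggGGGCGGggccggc

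The 5 windows differed in these letters. Slit2 held 3 GC boxes, Sema5a 5 and Plxnb2 4, Epha3 held 1 TEAD site, and Robo1 held 1 HNF1 half-site. The Robo1 window stands before a RefSeq start inside the gene, whose GENCODE start is at 72308306. RefSeq gave 23 starts for 17 of the 21 guidance genes that passed the threshold. Of these windows 56.5% held a GC box, 4.35% an AP-1 site, 8.7% a TEAD site and 8.7% an HNF1 half-site. Over all 32851 windows of the table the shares were 32.7%, 6.75%, 12.6% and 6.43%. A GC box stood before the gene that fell as well as before genes that rose, and these matches are descriptions of the letters only.

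The Slit and Robo genes held some of the clearest changes. Slit2, the secreted ligand, lies on chromosome 5 from 47983138 to 48307733 (GRCm38). It had 1.64, 1.81 and 2.13 CPM in the labelled Mdr2-knockout libraries, against 0.0635, 0.255 and 0.252 CPM in the labelled WT libraries. The labelled WT libraries held no more than a few reads each, and the groups did not overlap. The increase was 3.24 on the log2 scale (SE 0.43, edgeR adjusted p = 0.000384). Its paralog Slit3 had 0.843, 0.856 and 1.71 CPM against 0.254, 0.766 and 0.252 CPM, the groups did not overlap, and it did not pass (1.41, SE 0.52, edgeR adjusted p = 0.0541). The adjusted p of Slit3 was 0.0254 without labelled WT replicate 2 and 0.185 without labelled Mdr2-knockout replicate 3. Slit3 also passed with upper-quartile factors, with total counts and with limma-voom. Slit1 had 18 counts in the labelled Mdr2-knockout and 14 in the labelled WT group and was not tested.

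Robo1, the Slit receptor on chromosome 16 from 72308306 to 73046095, had the smallest p of all guidance genes. It had 31.3, 26.8 and 27.6 CPM in the labelled Mdr2-knockout libraries, against 6.1, 7.28 and 7.76 CPM in the labelled WT libraries. Every labelled knockout library stood far above every labelled WT library, with a log2 change of 2.02 (SE 0.12, edgeR adjusted p = 2.66e-06). Robo2 lies beside it on the same chromosome, from 73891839 to 74411825, and had 4.71, 4.08 and 5.14 CPM against 1.14, 1.02 and 2.21 CPM (log2 change of 1.66, SE 0.28, edgeR adjusted p = 0.00146). Labelled WT replicate 3 was the highest of its group for Robo2 and still below the labelled knockout libraries.

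Robo4, the Robo of endothelium, did not pass. It had 6.79, 7.6 and 10.3 CPM in the labelled Mdr2-knockout libraries, against 9.53, 10.5 and 9.84 CPM in the labelled WT libraries (log2 change of -0.28, edgeR adjusted p = 0.206; 0.02 with total counts). Without labelled Mdr2-knockout replicate 3, its highest library of that group, Robo4 passed as lower (-0.47, adjusted p = 0.0329). Per gene length, in the authors' FPKM, Robo4 made up 44.3% to 57.5% of the summed Robo level in the labelled Mdr2-knockout libraries and 79.5% to 84.9% in the labelled WT libraries. Robo4 was the leading Robo per gene length in each library of both groups. In the labelled Mdr2-knockout group Robo1 stood at 1.92 ± 0.173 FPKM beside 2.57 ± 0.582 FPKM of Robo4 (SD, n = 3). The 2 were closest in labelled Mdr2-knockout replicate 1, at 2.11 and 2.13 FPKM. Robo3 had 11 and 6 counts per group and was not tested.

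**Figure D2:**
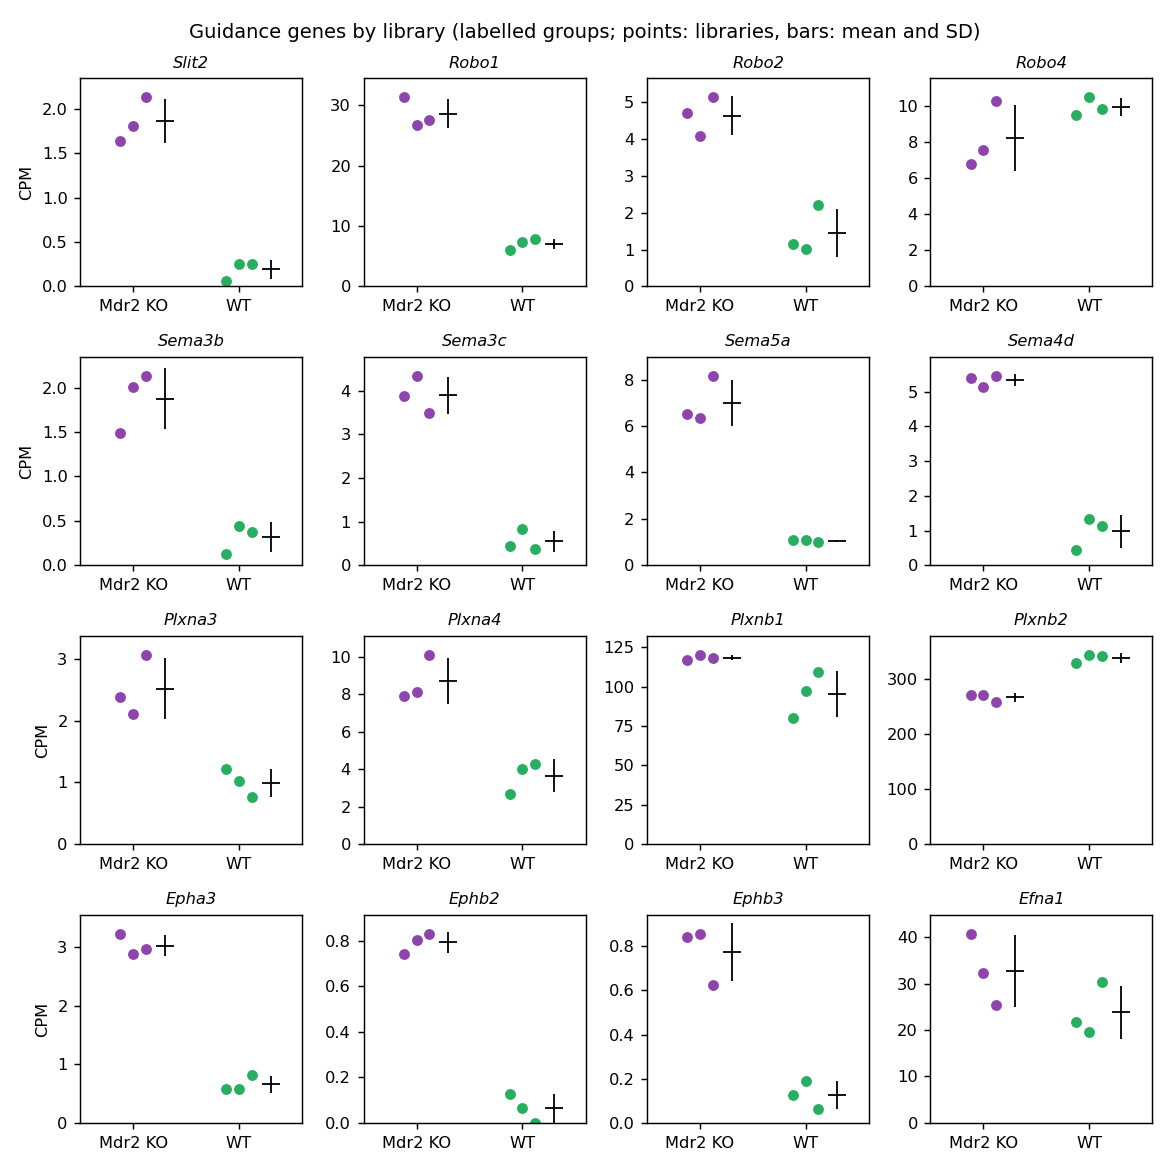
CPM of 16 guidance genes in each library, with the labelled Mdr2-knockout libraries left of the labelled WT libraries, and black bars for mean and SD (n = 3); each panel starts at 0 and has its own scale. The groups stand apart for Slit2, Robo1, Robo2, Sema5a, Sema4d and Epha3, while Robo4 and Efna1 overlap and Plxnb2 is lower in the labelled Mdr2-knockout libraries.

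Among the secreted class 3 semaphorins, 3 of 5 tested genes rose, 0 fell and 2 did not pass. Among all tested genes 20.9% were higher and 16.3% lower, and whether the shares differ was not tested. Sema3c, a ligand of neuropilin and plexin receptors known from heart and vessel development, had 3.87, 4.33 and 3.48 CPM in the labelled Mdr2-knockout libraries, against 0.445, 0.83 and 0.378 CPM in the labelled WT libraries. That was the steepest increase of the class, with no overlap (log2 change of 2.81, SE 0.31, edgeR adjusted p = 0.000122). Sema3b, at 1.49, 2.01 and 2.13 CPM against 0.127, 0.447 and 0.378 CPM, rose by a log2 change of 2.54 (SE 0.41, edgeR adjusted p = 0.00119). Sema3f, the member with the highest level per length, had 8.78, 11.8 and 11.6 CPM against 5.78, 7.91 and 7.32 CPM, a smaller rise (0.61, SE 0.16, edgeR adjusted p = 0.0151). The call of Sema3f was lost without labelled Mdr2-knockout replicate 2 or labelled WT replicate 1, with an adjusted p of up to 0.0593.

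Sema3d and Sema3g did not pass, at log2 changes of 0.66 and -0.22 (edgeR adjusted p = 0.0739 and 0.849). Sema3g was set by a single library: labelled WT replicate 2 held 30 of the 39 counts of its group, and without it the log2 change was 1.30. Sema3e, the ligand of plexin-D1, had 16, 5 and 20 counts against 0, 3 and 0 counts and was left out by the filter. Its ratio was 10.9, with an exact 95% counting interval of 3.48 to 55, and without the filter its edgeR adjusted p was 0.0134. Sema3a had 32 counts in the labelled Mdr2-knockout and 9 in the labelled WT group and was not tested either.

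The membrane-bound semaphorins of class 4 to 7 had 5 of 12 tested genes higher (41.7%), 0 lower and 7 that did not pass. The background was again 20.9% higher and 16.3% lower, and the difference in shares was not tested. Sema5a, whose extracellular part carries thrombospondin repeats beside the semaphorin domain, had 6.54, 6.34 and 8.15 CPM in the labelled Mdr2-knockout libraries, against 1.08, 1.09 and 1.01 CPM in the labelled WT libraries. The labelled WT values lay within a narrow band, and the log2 change was 2.72 (SE 0.21, edgeR adjusted p = 1.35e-05). Sema4d, the ligand of plexin-B1 that is known from lymphocytes, had 5.4, 5.13 and 5.45 CPM against 0.445, 1.34 and 1.14 CPM (2.44, SE 0.30, edgeR adjusted p = 0.000215). Here the labelled knockout libraries were the tight group.

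Sema5b and Sema7a rose with a wider spread. Sema5b, the paralog of Sema5a, had 2.93, 1.46 and 2.49 CPM against 1.33, 1.02 and 0.505 CPM (log2 change of 1.26, SE 0.39, edgeR adjusted p = 0.0274). Sema7a, which is held in the membrane by a lipid anchor and binds plexin-C1 and integrins, had 0.793, 0.654 and 2.03 CPM against 0.318, 0.319 and 0.126 CPM (2.15, SE 0.60, edgeR adjusted p = 0.0179). Labelled Mdr2-knockout replicate 3 was the highest library for Sema7a by far, and without it the log2 change was 1.49 and the call was lost, as it was without labelled WT replicate 3 (adjusted p up to 0.0586). Sema5b lost its call without labelled Mdr2-knockout replicate 1 or 3 and without labelled WT replicate 2 or 3 (adjusted p up to 0.103).

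Sema6d, a ligand of class A plexins, rose slightly, at 18.5, 19.1 and 20 CPM in the labelled Mdr2-knockout and 14, 12.4 and 17.7 CPM in the labelled WT libraries (log2 change of 0.38, SE 0.13, edgeR adjusted p = 0.0368). Its call was lost with DESeq2 and without any 1 of the libraries except labelled WT replicate 3, with an adjusted p of up to 0.136. Sema4g, at 528, 448 and 450 CPM against 435, 405 and 426 CPM, was the most abundant guidance gene per length and did not pass (0.17, SE 0.09, edgeR adjusted p = 0.158). It made up 72.4% to 75.7% of the summed semaphorin FPKM in the labelled Mdr2-knockout libraries and 71.9% to 77.4% in the labelled WT libraries. The semaphorin genes that rose together made up 4.43% to 6.04% of that sum in the labelled Mdr2-knockout libraries and 2.21% to 2.79% in the labelled WT libraries. Sema4a, the next in level, stood at 84 ± 8.76 CPM against 86.6 ± 13.6 CPM (SD, n = 3) and did not pass.

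Sema4b, Sema4c and Sema6c, at log2 changes of 0.51, 0.39 and 0.38, did not pass, nor did Sema6a and Sema6b, at -0.01 and -0.18, whose signs turned positive with total counts. Sema4f had 11 counts in the labelled Mdr2-knockout and 1 in the labelled WT group, 10 of them in labelled Mdr2-knockout replicate 2, and was not tested.

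**Figure D3:**
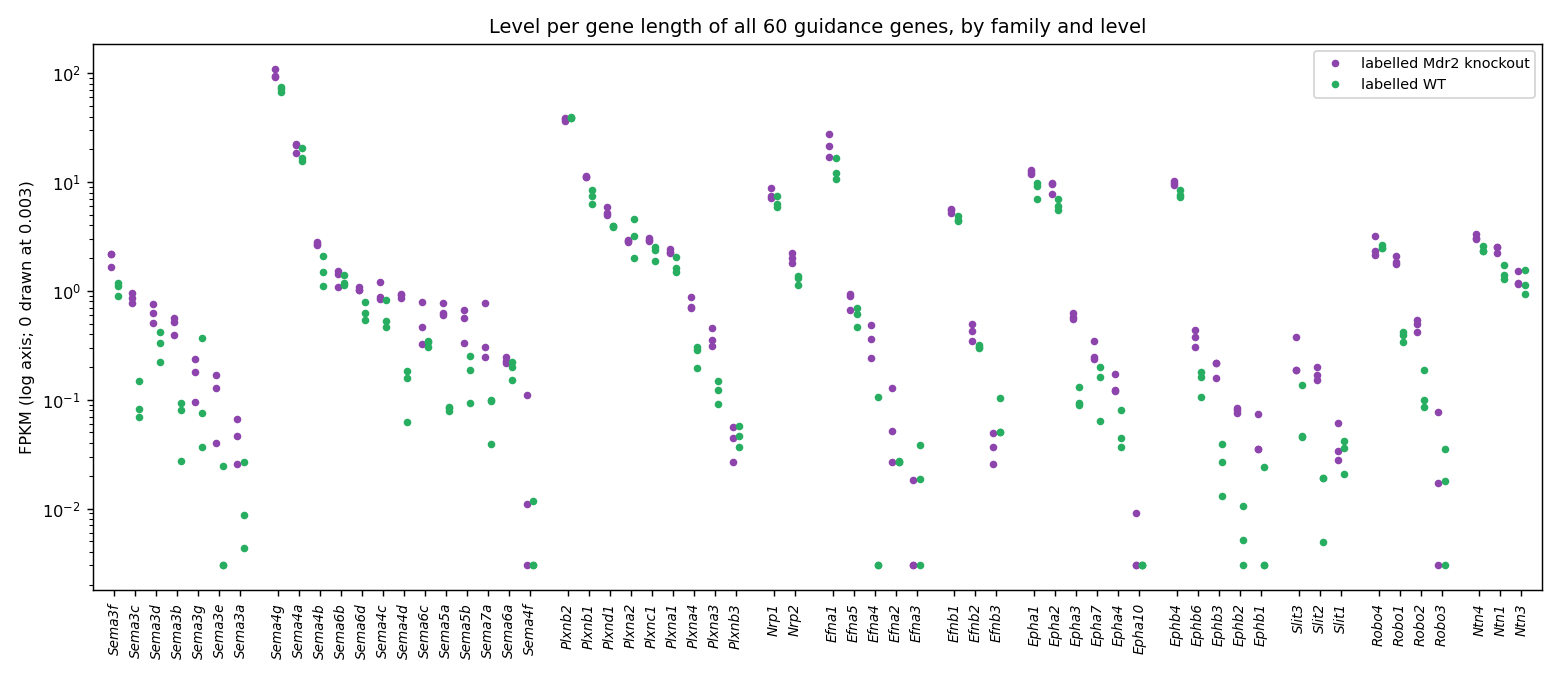
Level per gene length (the authors' FPKM, log axis, with values of 0 drawn at 0.003) of all 60 guidance genes in each library, ordered by level within each family, labelled Mdr2-knockout points left of labelled WT points. Sema4g and Plxnb2 lead, and some of the genes with the widest gap between the groups, such as Sema5a and Ephb2, stand in the lower part of their family. These FPKM carry no TMM factors, so gaps between the groups differ from those in CPM. Plxnb2 averaged 37.9 FPKM in the labelled Mdr2-knockout and 39.2 FPKM in the labelled WT group, but 267 and 339 CPM.

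The plexins, the receptors of semaphorins, split. Of 8 tested genes, 3 rose (37.5%), 1 fell (12.5%) and 4 did not pass. Beside them, 20.9% of all tested genes were higher and 16.3% lower, and whether these shares differ was not tested. Plxna4, a partner of neuropilin-1 and receptor of class 6 semaphorins, had 7.93, 8.1 and 10.1 CPM in the labelled Mdr2-knockout libraries, against 2.67, 4.02 and 4.29 CPM in the labelled WT libraries (log2 change of 1.25, SE 0.20, edgeR adjusted p = 0.000994). Plxna3, a partner of neuropilin-2, had 2.38, 2.11 and 3.06 CPM against 1.21, 1.02 and 0.757 CPM (1.33, SE 0.29, edgeR adjusted p = 0.00567). These class A plexins were thus more than doubled from a low level, without overlap.

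The abundant class B plexins moved apart by small amounts. Plxnb1, the receptor of semaphorin 4D, had 117, 120 and 118 CPM in the labelled Mdr2-knockout libraries, against 80.1, 97.2 and 109 CPM in the labelled WT libraries (log2 change of 0.31, SE 0.10, edgeR adjusted p = 0.0348). Its paralog Plxnb2, the leading plexin of these livers, fell to 272, 272 and 258 CPM, against 329, 344 and 343 CPM (-0.34, SE 0.07, edgeR adjusted p = 0.00517). The call of Plxnb2 was lost with total counts, at a log2 change of -0.05 and an adjusted p of 0.611. The call of Plxnb1 was lost with DESeq2 and without any 1 of the libraries except labelled WT replicate 3 (adjusted p up to 0.108). A ratio within a library does not depend on scaling: the FPKM of Plxnb1 over that of Plxnb2 was 0.288, 0.295 and 0.305 in the labelled Mdr2-knockout libraries, against 0.163, 0.189 and 0.212 in the labelled WT libraries. The ratio was higher in each labelled knockout library, which shows unequal change and not which gene changed.

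Plxna2 was unusual in its spread. It had 38.8, 37.4 and 38.3 CPM in the labelled Mdr2-knockout libraries, against 73.6, 52.9 and 32.6 CPM in the labelled WT libraries, and did not pass (-0.47, SE 0.30, edgeR adjusted p = 0.281). Labelled WT replicate 3 alone lay below the labelled knockout values, and without it the log2 change was -0.73 and the adjusted p 0.00296. Plxnd1, Plxna1 and Plxnc1 did not pass, at 0.17, 0.13 and 0.09, and Plxnb3 had 14 and 15 counts per group and was not tested.

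Of the neuropilins, Nrp2 rose and Nrp1 did not pass. Nrp2, which binds class 3 semaphorins and VEGF-C, had 14.6, 13.3 and 16.3 CPM in the labelled Mdr2-knockout libraries, against 11.9, 12.1 and 10.2 CPM in the labelled WT libraries (log2 change of 0.37, SE 0.12, edgeR adjusted p = 0.0319). The call was lost with DESeq2 and without any 1 of the libraries except labelled Mdr2-knockout replicate 2 (adjusted p up to 0.107). Nrp1, several times as abundant, had 76.9, 66.6 and 62.1 CPM against 67, 80.8 and 63.4 CPM, and its groups overlapped (-0.04, edgeR adjusted p = 0.805).

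Some Eph receptor genes passed and no ephrin gene did. Of 9 tested Eph receptor genes 4 rose and 0 fell, with 1 of 5 EphA and 3 of 4 EphB genes higher. Of 4 tested ephrin genes 0 rose and 0 fell. Among all tested genes 20.9% rose and 16.3% fell, and 4 ephrin genes are too few to show a share below that. Whether the shares of receptors and ligands differ was not tested. Epha3, a receptor of A-type ephrins on chromosome 16 from 63543534 to 63864175, had 3.22, 2.87 and 2.96 CPM in the labelled Mdr2-knockout libraries, against 0.572, 0.574 and 0.82 CPM in the labelled WT libraries. It rose by a log2 change of 2.19 (SE 0.28, edgeR adjusted p = 0.000278). Ephb2, a receptor of B-type ephrins, had 15, 16 and 16 counts against 2, 1 and 0 counts. With 3 counts in the labelled WT group its ratio is given with a counting interval, 12.5 (exact 95% interval 4.02 to 62.7), and its edgeR adjusted p was 0.00219.

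Ephb3, which like Ephb2 is a receptor of intestinal crypts, had 0.843, 0.856 and 0.623 CPM in the labelled Mdr2-knockout libraries, against 0.127, 0.191 and 0.0631 CPM in the labelled WT libraries (log2 change of 2.54, SE 0.52, edgeR adjusted p = 0.00412). The labelled WT values of Ephb3 rest on 2, 3 and 1 counts. Ephb6, a receptor without kinase activity, had 1.49, 1.86 and 2.13 CPM against 0.953, 0.638 and 1.07 CPM (1.03, SE 0.31, edgeR adjusted p = 0.0254). The groups of both stood apart. Ephb6 lost its call with DESeq2, without labelled Mdr2-knockout replicate 2 or 3 and without labelled WT replicate 1 or 2 (adjusted p up to 0.0878). The 4 Eph genes that rose made up only 3.61% to 3.84% of the summed Eph FPKM in the labelled Mdr2-knockout libraries and 1.16% to 1.33% in the labelled WT libraries.

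The abundant Eph receptors did not pass in the main test. With total counts Epha1, Epha2 and Ephb4 passed as higher, at log2 changes of 0.52, 0.56 and 0.33 (edgeR adjusted p = 0.00389, 0.0021 and 0.00629). Epha2 also passed with upper-quartile factors (0.32, edgeR adjusted p = 0.035). Epha1, the highest per length, had 37, 39.4 and 36.3 CPM against 35.6, 26.4 and 34.2 CPM (log2 change of 0.23, edgeR adjusted p = 0.12). Epha2 averaged 34.2 ± 4.2 CPM against 28.4 ± 2.84 CPM (0.27, edgeR adjusted p = 0.0748). Ephb4, the ephrin-B2 receptor of veins, had 39.9, 38.7 and 36.7 CPM against 34.4, 37.4 and 40.6 CPM (0.04, edgeR adjusted p = 0.753). Epha4 and Epha7 stood at 1.05 and 0.68 and did not pass, and Ephb1 and Epha10 had at most 6 counts in a library and were not tested. Ephb1 had 3, 3 and 6 counts against 0, 2 and 0 counts.

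Of the ephrins, Efna1 was the most abundant, and its values were spread widely in each group. It had 40.7, 32.3 and 25.3 CPM in the labelled Mdr2-knockout libraries, against 21.7, 19.5 and 30.3 CPM in the labelled WT libraries (log2 change of 0.46, SE 0.23, edgeR adjusted p = 0.175). Labelled WT replicate 3 overlapped the knockout values, and without it Efna1 passed. Efnb1, the highest B-type ephrin per length, had 17.1, 15.9 and 16.8 CPM against 17.8, 16.8 and 16.2 CPM (-0.03, edgeR adjusted p = 0.83; 0.26 and an adjusted p of 0.0402 with total counts). Efna5 and Efnb2, the arterial ephrin, stood at 0.21 and 0.18 and did not pass. Efna4 had 7, 14 and 10 counts against 0, 0 and 3 counts, a ratio of 8.24 (exact 95% counting interval 2.57 to 42.1); the filter left it out, and without the filter its edgeR adjusted p was 0.0233. About 10.5% of the exonic bases of Efna4 also belong to a gene on the opposite strand, and since the strand setting of the counting is not given, the reads of the pair cannot be told apart. Efnb3, Efna2 and Efna3 held 9, 8 and 1 counts in the labelled Mdr2-knockout group and 16, 3 and 3 in the labelled WT group, and were not tested.

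Of 3 netrin genes, all tested, Ntn1 rose. It had 13.1, 13.1 and 11.6 CPM in the labelled Mdr2-knockout libraries, against 8.01, 8.94 and 11 CPM in the labelled WT libraries (log2 change of 0.44, SE 0.14, edgeR adjusted p = 0.028). The lowest knockout and the highest WT value nearly met, and the call was lost with DESeq2, without labelled Mdr2-knockout replicate 1 or 2 and without labelled WT replicate 1 or 2 (adjusted p up to 0.0961). Ntn4, a basement membrane netrin and the highest per length, had 6.69, 6.64 and 7.22 CPM against 6.1, 7.09 and 6.24 CPM (0.08, edgeR adjusted p = 0.676), and Ntn3 stood at -0.20 (edgeR adjusted p = 0.471; 0.10 with total counts).

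Of the 21 calls, 12 held with each alternative that gave a value: Slit2, Robo1, Robo2, Sema3b, Sema3c, Sema4d, Sema5a, Plxna3, Plxna4, Epha3, Ephb2 and Ephb3. The strictest filter left Ephb2, Ephb3 and Sema7a without a value. Without labelled WT replicate 3, 22 guidance genes were higher and 2 lower, and without labelled Mdr2-knockout replicate 3, 14 were higher and 2 lower. Genes gained without labelled WT replicate 3 were Efna1, Epha4, Plxna2, Sema3d, Sema4b and Sema4c, and Epha2 was gained without labelled Mdr2-knockout replicate 1 or labelled WT replicate 1. Labelled Mdr2-knockout replicate 3 was the highest library of its group for 23 of the 48 tested genes and the lowest for 11, and labelled WT replicate 3 was the highest of its group for 20 and the lowest for 14. Only 2 of the 21 genes share exonic bases with another gene in GENCODE M21, Plxnb1 (2.68%) and Plxna4 (0.78%).

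**Figure D4:**
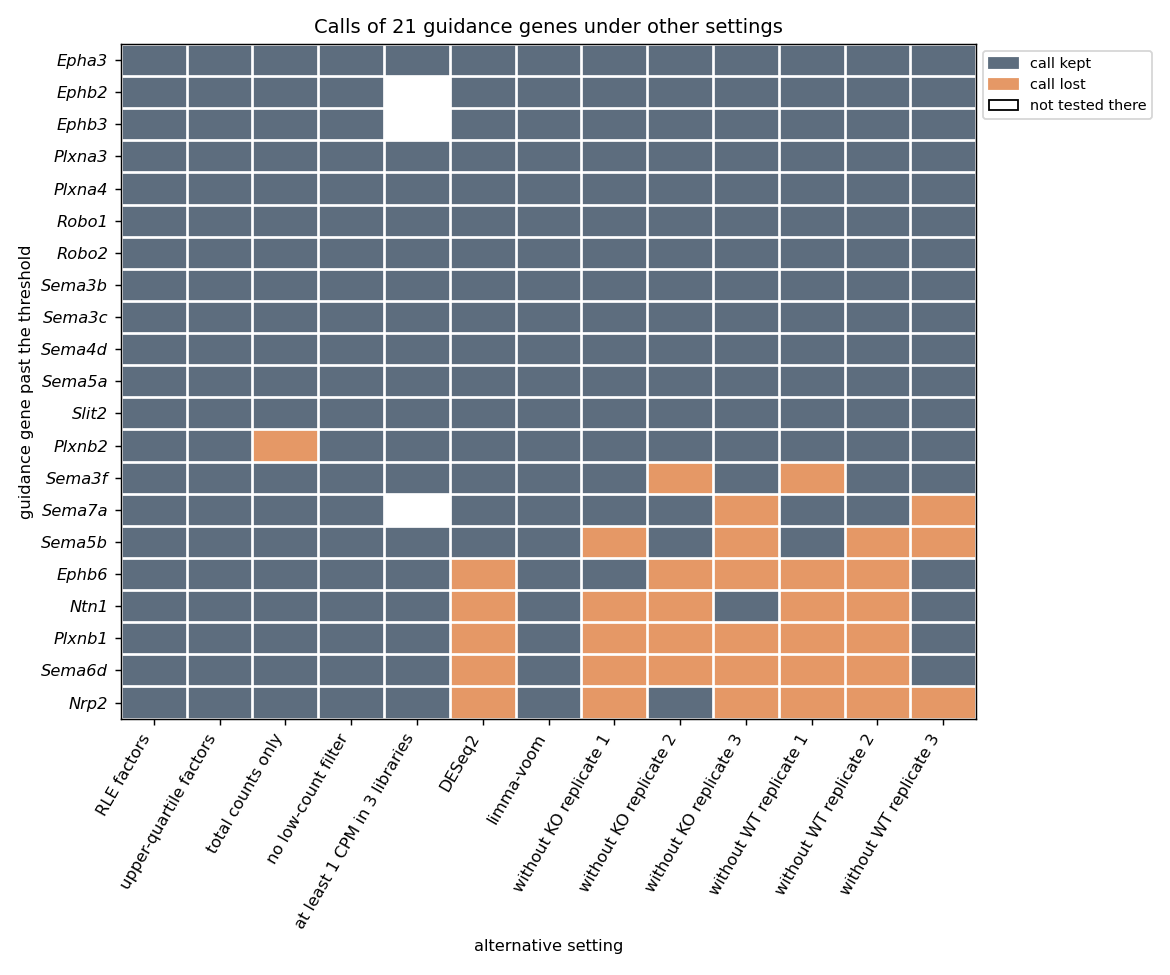
Each of the 21 guidance genes that passed the threshold, down the page, under each of the 13 other settings named along the axis: dark cells mark a call that was kept, orange cells a call that was lost, and white cells a gene not tested there (KO is the labelled Mdr2-knockout group). The 12 genes at the top lost no call, and the losses fall on genes with small changes or a wide spread.

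Genes that work with these ligands and receptors were counted from a list of 59, of which 56 were in the table and 48 were tested. Of these 14 rose and 9 fell, 29.2% and 18.8%, against 20.9% and 16.3% of all tested genes, and the median log2 fold change was 0.03. By role, 1 of 5 other netrin receptors and related genes rose and 0 fell. Of 10 co-receptors and growth factors 1 rose and 3 fell, and of 12 semaphorin and plexin effectors 5 rose and 2 fell. Of 13 Eph effectors and proteases 3 rose and 2 fell, and of 8 Slit and Robo effectors 4 rose and 2 fell.

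The netrin-1 receptor gene Unc5b had 12.1, 10.2 and 11.6 CPM in the labelled Mdr2-knockout libraries, against 4.64, 3.51 and 2.71 CPM in the labelled WT libraries (log2 change of 1.64, SE 0.19, edgeR adjusted p = 0.000149). Around Robo1 and Slit2 the list moved in opposite directions. Flrt3, a Robo1 co-receptor, rose to 0.691 ± 0.143 CPM against 0.0425 ± 0.0368 CPM (SD, n = 3; edgeR adjusted p = 0.00214). Its labelled WT values rest on 1, 1 and 0 counts. Gpc1, a glypican that binds Slit, fell to 3.64 ± 0.406 CPM against 9.81 ± 2.61 CPM (-1.43, edgeR adjusted p = 0.000593). Srgap3, a GTPase-activating protein that binds Robo receptors, fell to 1.68 ± 0.35 CPM against 6.27 ± 1.39 CPM (-1.90, edgeR adjusted p = 0.000282). Its paralogs, named after their values were seen, were higher: Srgap2, at 28.1 ± 2.48 CPM against 20 ± 2.49 CPM, rose by 0.49 on the log2 scale (edgeR adjusted p = 0.00546), and Srgap1 by 1.14 (edgeR adjusted p = 0.0346). The call of Srgap1 was lost with DESeq2, without labelled Mdr2-knockout replicate 1 or 3 and without labelled WT replicate 1 or 2 (adjusted p up to 0.12).

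Downstream of plexins, Dpysl3, of the collapsin response mediator family, rose to 5.92 ± 0.638 CPM against 2.16 ± 0.317 CPM (log2 change of 1.45, edgeR adjusted p = 0.000383). Mical1, a flavin monooxygenase that disassembles actin filaments, rose to 3.27 ± 0.234 CPM against 0.975 ± 0.413 CPM (1.74, edgeR adjusted p = 0.00188). Its more strongly counted paralog Mical3, also named after its values were seen, fell to 27.8 ± 1.15 CPM against 34.3 ± 3.7 CPM (-0.30, edgeR adjusted p = 0.0252), and Mical2 stood at -0.22 and did not pass. Mical3 lost its call with upper-quartile factors, with total counts (-0.01, adjusted p = 0.946), without labelled Mdr2-knockout replicate 1 or 2 and without labelled WT replicate 1 or 2. Without labelled WT replicate 3 Mical2 passed as lower (-0.32, adjusted p = 0.0257). Of the VEGF genes on the list, Vegfa and its receptor Kdr fell, and Vegfc, Flt1 and Flt4, at 0.45, -0.00 and -0.04, did not pass. Vegfa fell to 97 ± 8.75 CPM against 137 ± 7.86 CPM (-0.50, edgeR adjusted p = 0.00141), and Kdr to 41.1 ± 1.5 CPM against 52.9 ± 0.182 CPM (-0.36, edgeR adjusted p = 0.00199). With total counts both lost their calls, at -0.20 (adjusted p = 0.0664) for Vegfa and -0.07 (adjusted p = 0.416) for Kdr. Vegfc passed as higher with total counts (0.75, adjusted p = 0.0263) and without labelled Mdr2-knockout replicate 2 (0.67, adjusted p = 0.0369).

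Markers of several cell types moved with the labelled groups. Among all tested genes, 20.9% were higher and 16.3% lower. Cholangiocyte markers were higher for 14 of 14 tested genes and summed to between 553 and 585 CPM under the Mdr2-knockout label and between 105 and 137 CPM under the WT label. Spp1 (mean 293 against 36.1 CPM) and Cdh1 (mean 131 against 41.8 CPM) made up most of that sum. Epcam rose by 3.41 and Krt19 by 3.53 on the log2 scale. The list for stellate cells and fibroblasts had 10 of 14 genes higher and summed to 618 to 751 CPM against 253 to 388 CPM, and that for monocytes and macrophages had 8 of 12 higher, at 575 to 662 CPM against 257 to 459 CPM. In both of these lists labelled WT replicate 3 had the highest sum of its group.

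The endothelial sums overlapped between the groups. At low levels, the lymphocyte and neutrophil sums were higher in every labelled Mdr2-knockout library, and the Schwann cell and nerve sums overlapped. Sinusoidal endothelial markers summed to 343 to 361 CPM in the labelled Mdr2-knockout and 339 to 388 CPM in the labelled WT libraries, with 2 of 10 higher and 3 lower. Vascular endothelial markers summed to 205 to 211 CPM against 170 to 226 CPM, with 2 of 11 higher and 0 lower. The endothelial shares higher, 20% and 18.2%, were near the 20.9% of all tested genes. Lymphocyte markers, at 8.86 to 11.8 CPM against 4.32 to 6.81 CPM, were higher for 2 of 5 tested genes, and neutrophil markers, at 12.2 to 15.3 CPM against 3.56 to 8.7 CPM, for 3 of 4. Schwann cell and nerve markers summed to 7.65 to 12.5 CPM against 4.13 to 8.83 CPM, with 1 of 4 higher, and Sox10, the defining Schwann cell gene, had at most 3 counts in any library. Hepatocyte markers were lower for 10 of 13 and higher for 0, and Cps1, Tat and G6pc did not pass. Alb (mean 49441 against 85343 CPM) made up most of the hepatocyte sum. The part of these cell types in the changes of the guidance genes was not tested.

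**Figure D5:**
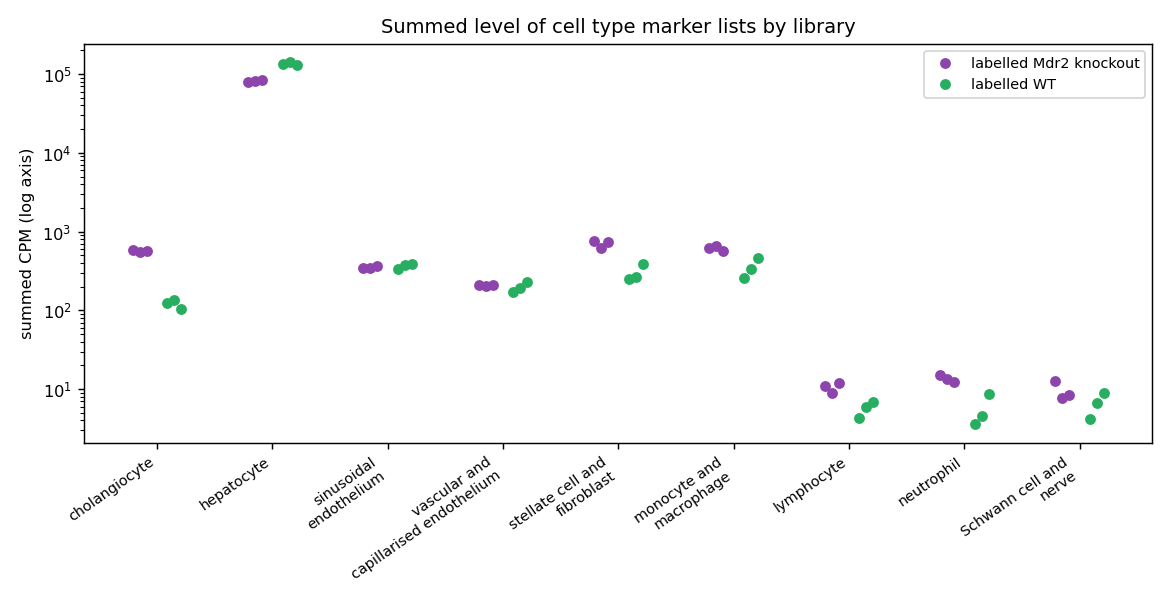
Summed CPM (log axis) of 9 cell type marker lists in each library, labelled Mdr2-knockout points left of labelled WT points. Cholangiocyte, stellate cell and fibroblast, and monocyte and macrophage sums are higher in every labelled Mdr2-knockout library, as are the low lymphocyte and neutrophil sums. Hepatocyte sums are lower in every labelled Mdr2-knockout library. The endothelial and the Schwann cell and nerve sums overlap.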

How the data were processed

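Gene counts as whole numbers, keyed by symbol, and FPKM are the 2 tables the authors deposited; within each gene the deposited FPKM were proportional to the counts over each library's total, so they are no independent measurement. The tools named, per the submitters' processing notes, are HISAT2, Bowtie2, Trimmomatic, SAMtools, StringTie, Cufflinks, HTSeq and DESeq, with the build mm10. Their roles and versions, the annotation and the strand setting were not given in the sources used here. Columns M and N were read as Mdr2-knockout and, by elimination, WT; 0 columns were left without a sample.

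Counts were tested with edgeR 4.0.16 (R 4.3.3): filterByExpr (minimum count 10, total 15), TMM, robust quasi-likelihood fit with group as the only term on all 6 libraries, Benjamini-Hochberg over 12612 genes, threshold 0.05. SE came from the fold change and its F statistic. Positive changes mean higher in labelled Mdr2-knockout. CPM serve comparisons of a gene between libraries, FPKM those between genes. Counting intervals cover counting error only. Alternatives were other scalings and filters, DESeq2 1.42.0, limma-voom (limma 3.58.1), a replicate block and leaving out each library. No pair of libraries within a group agreed within counting error (chi-square over its degrees of freedom at least 16).

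The members, partner genes and marker lists were chosen with earlier results of these data known. Values per library are given for each gene past the threshold and for the highest FPKM of each family; any other gene so shown was chosen after its values were seen. Promoters are from RefSeq (GRCm38.p6), which matched 52 of the 60 symbols; those printed were chosen after the results.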

Additional observations from a re-analysis of the deposited data

How the results depend on the processing

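With 20 guidance genes higher and 1 lower in the main test, total counts gave 35 and 0, and a 2-fold minimum gave 15 and 0. Leaving out 1 library gave 14 to 22 higher and 1 to 2 lower. RLE, upper-quartile, limma-voom, DESeq2 and both other filters kept the counts within 1.5 times. Of the partner list, 14 were higher and 9 lower; total counts gave 22 and 2, a 2-fold minimum 5 and 2, and leaving out 1 library 9 to 13 and 7 to 11 (9 higher without labelled Mdr2-knockout replicate 1 or labelled WT replicate 2). Of all tested genes, 2634 were higher and 2051 lower; total counts gave 5930 and 330, and a 2-fold minimum 1404 and 95. Apart from the block, lost calls of single genes named in the text stand beside those genes above, and the cause was not tested.

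Signs turned only in genes that had not passed. With total counts the log2 fold changes were 0.26 for Efnb1, 0.26 for Nrp1, 0.10 for Ntn3, 0.02 for Robo4, 0.08 for Sema3g, 0.25 for Sema4a, 0.28 for Sema6a, 0.11 for Sema6b, 0.07 for Mical2, 0.29 for Flt1 and 0.25 for Flt4. With upper-quartile factors they were 0.03 for Efnb1, 0.02 for Nrp1, 0.01 for Sema4a, 0.05 for Sema6a, 0.05 for Flt1 and 0.01 for Flt4. With limma-voom they were 0.30 for Sema3g and 0.00 for Sema6a, and with the stricter filter 0.01 for Sema6a and 0.01 for Flt1. Without 1 library the ranges were -0.06 to 0.00 for Efnb1, -0.03 to 0.09 for Ephb4, -0.13 to 0.07 for Nrp1, -0.34 to 0.00 for Ntn3, -0.05 to 0.18 for Plxnc1, -0.69 to 1.30 for Sema3g, -0.14 to 0.08 for Sema4a, -0.14 to 0.09 for Sema6a, -0.04 to 0.63 for Sema6c, -0.07 to 0.09 for Flt1 and -0.25 to 0.08 for Flt4.

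The groups share replicate numbers, and same-numbered libraries deviated from their group means with correlations of 0.0842, 0.0449 and -0.0759. With 3 libraries per group, such weak correlations cannot tell whether same-numbered libraries shared a batch. The main test used no block. With the replicate block 19 guidance genes were higher and 1 lower, Nrp2 lost its call (adjusted p = 0.0518), and Sema6a stood at 0.00; not every library correlated best with its own number. At this depth, genes of a few reads per library, such as those left out by the filter, give wide counting intervals.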
